A study of Mus musculus with 18 samples.

Results

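The malate-aspartate shuttle and the malic enzymes were examined in ileum cells of 18 mice, as 10 genes with 27 probes on an Agilent one-colour microarray. The genes were *Got1*, *Got2*, *Mdh1*, *Mdh2*, *Slc25a11*, *Slc25a12*, *Slc25a13*, *Me1*, *Me2* and *Me3*, and every probe whose gene name on the array equals one of these was taken. The set was chosen because *Got1* and *Me3* differed by both diet and genotype in these same arrays, so the values of the set in them are a description and carry no test. The set was thus chosen by the signals of these genes in both comparisons. A probe was measured if it stood well above background in 5 or more mice of some group, which 24 of the 27 did, and all 10 genes had such a probe, among 21542 gene names and 32726 probes measured in all. The 3 probes left out belong to *Slc25a12*, *Me2* and *Me3*, and each was well above background on 0 of the 18 arrays.

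Mice with floxed Pgc1α alleles and no deletion (Pgc1α fl/fl, called floxed mice from here on) were fed chow or a Western diet (WD), and mice with the intestinal deletion (iPgc1α-/-) were fed WD. Each of these 3 groups held 6 mice, each read on an array of its own, and knockout mice on chow were not analysed here. The labels write iPGC1afl/fl and iPGC1a-/- for the genotypes and HFD for the WD. All mice carried the floxed alleles of Pgc1α, a transcriptional coactivator of mitochondrial genes, on a C57BL6/J background. The iPgc1α-/- mice also carried Cre recombinase under the Villin promoter (Vil1-Cre), which is active in the intestinal epithelium, so other cells of the ileum keep the gene. Mice were 8 weeks old at the start, were fed for 8 weeks and were killed fasted at Zeitgeber Time 3. Fat made up 42% of the kcal of WD, which also contained 0.2% cholesterol. Cells were released from the ileum by chelation and their RNA was measured in bulk, so fewer cells of a type and less RNA per cell cannot be told apart.

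The malate-aspartate shuttle moves the reducing equivalents of cytosolic NADH into mitochondria, whose inner membrane NADH does not cross. In the cytosol, GOT1 makes oxaloacetate from aspartate and MDH1 reduces it to malate with NADH. The carrier encoded by *Slc25a11* brings malate in against 2-oxoglutarate, MDH2 oxidizes it again, GOT2 returns the carbon to aspartate, and the carriers encoded by *Slc25a12* (aralar) and *Slc25a13* (citrin) export aspartate against glutamate. Malic enzymes draw on the same malate and convert it to pyruvate. ME1 is cytosolic and yields NADPH, a source of reducing power for lipid synthesis, while ME2 and ME3 are mitochondrial and yield mainly NADH and NADPH, respectively.

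*Got1* was read by 3 probes, and its 2 dimmer ones are shown because both diet calls of the gene rest on them and because they share 50 of their 60 bases, given in capitals. They therefore are not independent readings of the transcript. Both are written 5′ to 3′ as deposited, with mm9 positions on the minus strand: probe 2 at chr19:43579114-43579173 and probe 3 at chr19:43579124-43581417, whose ends lie 2294 bases apart in the genome, so that it spans a splice junction.
Got1 probe 2: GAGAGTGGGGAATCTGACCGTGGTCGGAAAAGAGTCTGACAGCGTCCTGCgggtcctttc
Got1 probe 3: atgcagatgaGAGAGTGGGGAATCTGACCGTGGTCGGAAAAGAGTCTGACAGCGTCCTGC
No other pair of probes to one gene of the set shared more than 10 bases in a row.

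The promoters of *Got1* and *Me3* are shown because the set was chosen for these genes. The 250 bases before each start were taken from RefSeq promoter windows of GRCm38.p6, a later build than that of the array, and windows were found for 9 of the 10 genes. Capitals mark matches, on either strand, to AGGTCA (the nuclear receptor half-site), TCAAGGTCA (the estrogen-related receptor element, which holds the half-site), TGACNNNGC (the antioxidant response element core) or TGATGCAA (a C/EBP-ATF element). The *Got1* window is at chr19:43524606-43524855 on the minus strand and the *Me3* window at chr7:89632568-89632817 on the plus strand.
Got1: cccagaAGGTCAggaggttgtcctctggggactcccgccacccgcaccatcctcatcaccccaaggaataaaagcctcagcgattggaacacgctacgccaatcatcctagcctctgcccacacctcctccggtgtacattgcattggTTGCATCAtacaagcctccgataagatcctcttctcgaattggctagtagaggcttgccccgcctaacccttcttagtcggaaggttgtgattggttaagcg
Me3: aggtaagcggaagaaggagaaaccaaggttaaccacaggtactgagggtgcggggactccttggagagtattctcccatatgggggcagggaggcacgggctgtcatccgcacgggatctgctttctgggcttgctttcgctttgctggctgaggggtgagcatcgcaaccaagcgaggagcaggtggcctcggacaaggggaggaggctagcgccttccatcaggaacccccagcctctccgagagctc
The *Got1* window held AGGTCA from 244 bases before the start and, on the other strand, TGATGCAA from 102 bases before it, while the *Me3* window held none of the 4 motifs. The half-site was also found in the *Got2* window, and the antioxidant response element core in those of *Mdh1* and *Me1*. The windows searched ran 50 bases past the start, where the *Mdh1* match lies, and the *Me1* match crosses the start. Over all 32851 windows of 300 bases, 16.3% held AGGTCA, 0.423% TCAAGGTCA, 12.4% TGACNNNGC and 0.895% TGATGCAA on either strand. These matches describe the letters of the windows, not binding.

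All values below are log2 median signals after smooth quantile normalization, and a difference of 1 is a 2-fold change. Each gene is represented by its brightest probe, and levels are not compared between probes. Diet differences compare WD with chow in floxed mice and genotype differences compare the arrays labelled iPgc1α-/- with floxed mice on WD, so that both share the 6 floxed arrays on WD. A gene is termed called if at least 1 probe reached an adjusted p of 0.05 in limma together with a fold change above 1.5. The diet comparison called 1960 gene names (9.1%), 760 higher (3.53%) and 1202 lower (5.58%) on WD, some gene names being called in both directions by different probes. Scaling to each array's 75th percentile gave 952 higher and 1003 lower with the median signal and 1305 and 1706 with the background-subtracted signal. The genotype comparison called 35 (0.162%), of which 19 were higher and 16 (0.0743%) lower, while 15 were higher and 23 lower with the latter scaling. Epithelial markers were measured in full (5 of 5 genes), as were those of ileal enterocytes (6 of 6). Macrophage (3 of 4), stroma and muscle (4 of 5), hepatocyte (3 of 4), endothelial (1 of 3) and pancreatic (1 of 4) markers were measured in part, among them *Lyz2*, *Acta2*, *Serpina1a*, *Pecam1* and *Cela1*, while *Adgre1*, *Col1a1*, *Alb*, *Cdh5*, *Kdr*, *Prss2*, *Cpa1* and *Amy2b* had no measured probe. The 2 *Ppargc1a* probes were not lower in the arrays labelled iPgc1α-/- (differences of 0.30 and 0.36), but both lie outside the deleted exons and so check nothing about the labels.

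On WD, 5 of the 10 genes were called, 4 higher (*Got1*, *Slc25a11*, *Me1* and *Me3*) and 1 lower (*Slc25a12*). With the adjusted p alone, 9 of 10 passed by diet, *Slc25a13* being the exception, where 27.3% of all gene names did. By genotype, *Got1* and *Me3* were called, both lower in iPgc1α-/- mice, and with the adjusted p alone *Slc25a12* joined them, where 0.269% of all gene names passed. Since *Got1* and *Me3* are the reason for the choice of the set, nothing is read from these counts. At the brightest probe, 8 genes were higher and 2 lower on WD, with a median difference of 0.37 (0.00 over all gene names). In iPgc1α-/- mice 2 were higher and 8 lower, with a median difference of -0.12 (0.01 over all gene names). The groups did not overlap by diet for 4 of the 10 (10.4% of all gene names) and by genotype for 2 (0.966%).

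**Figure D1:**
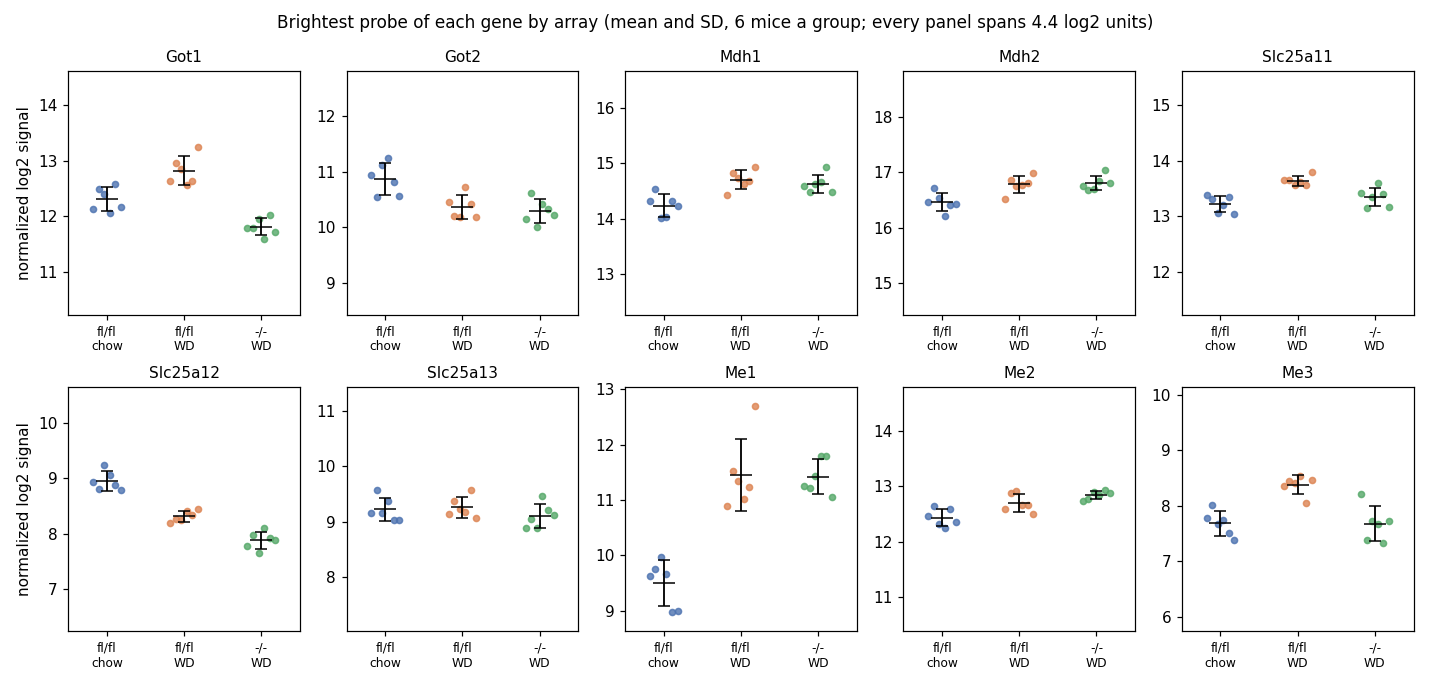
Normalized log2 signal of the brightest probe of each gene (y axis, every panel 4.4 log2 units high) by group (x axis: floxed on chow, floxed on WD, iPgc1α-/- on WD). Points are arrays, 1 per mouse, and black bars the mean and SD of 6; *Me1* rises from 9.50 to 11.45 with diet, and *Got1* falls from 12.82 to 11.81 between the genotypes on WD.

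The aminotransferases moved apart from each other. *Got1*, the cytosolic enzyme, had signals at its brightest probe (chr19:43574278-43574337, minus strand, mm9) from 12.06 to 12.57 on chow (median 12.29), from 12.57 to 13.25 on WD (median 12.75) and from 11.60 to 12.02 in iPgc1α-/- mice on WD (median 11.79). All 6 iPgc1α-/- arrays lay below every array of both other groups, while the floxed groups met at their edges. The mean was 12.82 ± 0.26 (SD, n = 6) in floxed mice on WD against 11.81 ± 0.15 in iPgc1α-/- mice, a difference of -1.01 (SE 0.12, 95% confidence interval -1.25 to -0.76), or 2.01-fold. This was the largest genotype difference of the set and was called in each of the 18 fits that leave out 1 array. Of these fits, the 6 without a chow array leave the genotype difference itself unchanged. By diet the same probe was higher by 0.51 (SE 0.12, interval 0.26 to 0.76), or 1.42-fold, which is short of the fold threshold. The iPgc1α-/- mice on WD thus stood 0.50 below floxed mice on chow at this probe.

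The diet call of *Got1* came from its overlapping probes 2 and 3, at 0.63 (SE 0.17) and 0.60 (SE 0.18). The call was lost without floxed chow replicate 1 or 4 and without floxed WD replicate 2 or 3. By genotype these probes differed by -0.75 (interval -1.11 to -0.39) and -0.73 (interval -1.11 to -0.36) and were not called. At probe 2, the iPgc1α-/- arrays ranged from 8.09 to 8.84 and the floxed arrays on WD from 8.70 to 9.52, so the groups overlapped there. Against floxed mice on chow, the iPgc1α-/- mice differed by -0.12 at probe 2 and -0.13 at probe 3. All 3 probes had the same direction in both comparisons, and the brightest alone placed iPgc1α-/- mice clear of the chow group.

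*Got2*, the mitochondrial aminotransferase, was read by 1 probe (chr8:98388339-98388398, minus strand). Its signal was 10.87 ± 0.29 on chow, 10.37 ± 0.21 in floxed mice on WD and 10.29 ± 0.21 in iPgc1α-/- mice (SD, n = 6 each). It was lower on WD by 0.50 on the log2 scale, at -0.50 (SE 0.13, interval -0.78 to -0.23), under the fold threshold, where *Got1* was higher. The genotype difference was -0.08 (SE 0.13), with an interval from -0.35 to 0.20.

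**Figure D2:**
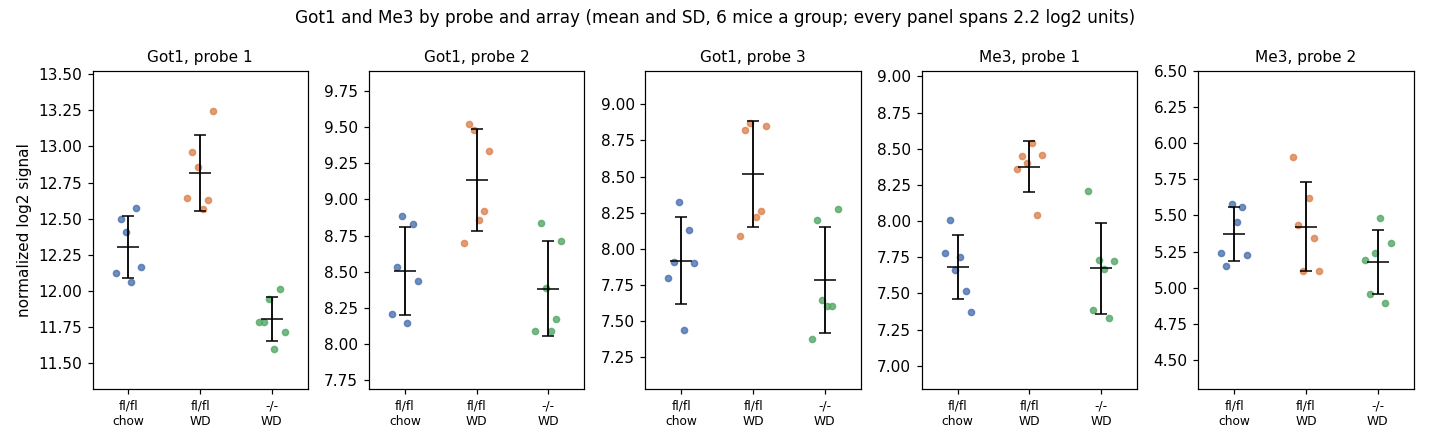
Normalized log2 signal (y axis, every panel 2.2 log2 units high) of the 3 probes of *Got1* and the 2 measured probes of *Me3* in the 3 groups (x axis), with points for arrays and black bars for the mean and SD of 6. The iPgc1α-/- arrays are apart from both other groups at *Got1* probe 1 and overlap them at probes 2 and 3, and *Me3* probe 2 shows little of the pattern of probe 1.

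The malate dehydrogenases were higher on WD by less than the fold threshold and differed little between genotypes. *Mdh1*, the cytosolic enzyme, was 14.24 ± 0.20 on chow, 14.70 ± 0.17 in floxed mice on WD and 14.63 ± 0.16 in iPgc1α-/- mice (SD, n = 6 each). Its diet difference was 0.46 (SE 0.10) at the brightest probe and 0.43 (SE 0.12) at the next, but 0.09 (interval -0.15 to 0.33) at the dimmest of its 3 probes. *Mdh2*, the mitochondrial enzyme, was 16.46 ± 0.16 on chow, 16.78 ± 0.15 on WD and 16.81 ± 0.13 in iPgc1α-/- mice, a diet difference of 0.32 (SE 0.09). The genotype intervals ran from -0.29 to 0.14 for *Mdh1* and from -0.16 to 0.21 for *Mdh2*.

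Among the carriers, *Slc25a12*, which encodes aralar, went stepwise down over the 3 groups. At its brightest probe (chr2:71112979-71113038, minus strand), signals ranged from 8.79 to 9.25 on chow (median 8.90), from 8.19 to 8.46 on WD (median 8.30) and from 7.65 to 8.10 in iPgc1α-/- mice (median 7.91). No array of one group reached the range of another. The diet difference was -0.63 (SE 0.09, interval -0.82 to -0.45) and was called, 1.55-fold. The genotype difference was -0.43 (SE 0.09, interval -0.62 to -0.25), 1.35-fold, under the fold threshold. Together these put iPgc1α-/- mice on WD 2.09-fold below floxed mice on chow, at -1.07 (SE 0.09).

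The other 4 measured probes of *Slc25a12* gave smaller diet differences, of -0.43, -0.30, -0.25 and 0.03, and genotype differences of -0.29, -0.26, -0.31 and -0.43. Thus all 5 were lower in iPgc1α-/- mice, and 4 of 5 were lower on WD. Probes 3 to 5 were dim, with mean signals of 5.67, 5.58 and 5.48, though well above background on all 18 arrays. The diet call rests on the brightest probe and was lost without floxed chow replicate 3, the highest array of that group, where the difference was -0.58.

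*Slc25a11*, the 2-oxoglutarate and malate carrier, was higher on WD without overlap at both probes. The brightest (chr11:70457739-70457798, minus strand) ranged from 13.04 to 13.38 on chow, from 13.55 to 13.80 on WD and from 13.15 to 13.60 in iPgc1α-/- mice. Its diet difference of 0.42 (SE 0.09) was under the fold threshold, and the call came from the dimmer, junction-spanning probe at 0.59 (SE 0.12), the called value closest to that threshold. It was lost in 8 of 18 fits that leave out 1 array, namely without floxed chow replicates 1, 3, 4 or 6 or floxed WD replicates 2, 3, 4 or 5. Of the 18, the 6 without an iPgc1α-/- array leave the diet difference itself unchanged, and all 8 losses fell among the others. By genotype the brighter probe differed by -0.29 (interval -0.47 to -0.11) and the dimmer by -0.04 (interval -0.30 to 0.22). *Slc25a13*, which encodes citrin, differed by 0.04 (interval -0.20 to 0.27) with diet and by -0.16 (interval -0.39 to 0.08) with genotype, and its second probe was well above background on 11 of 18 arrays only.

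**Figure D3:**
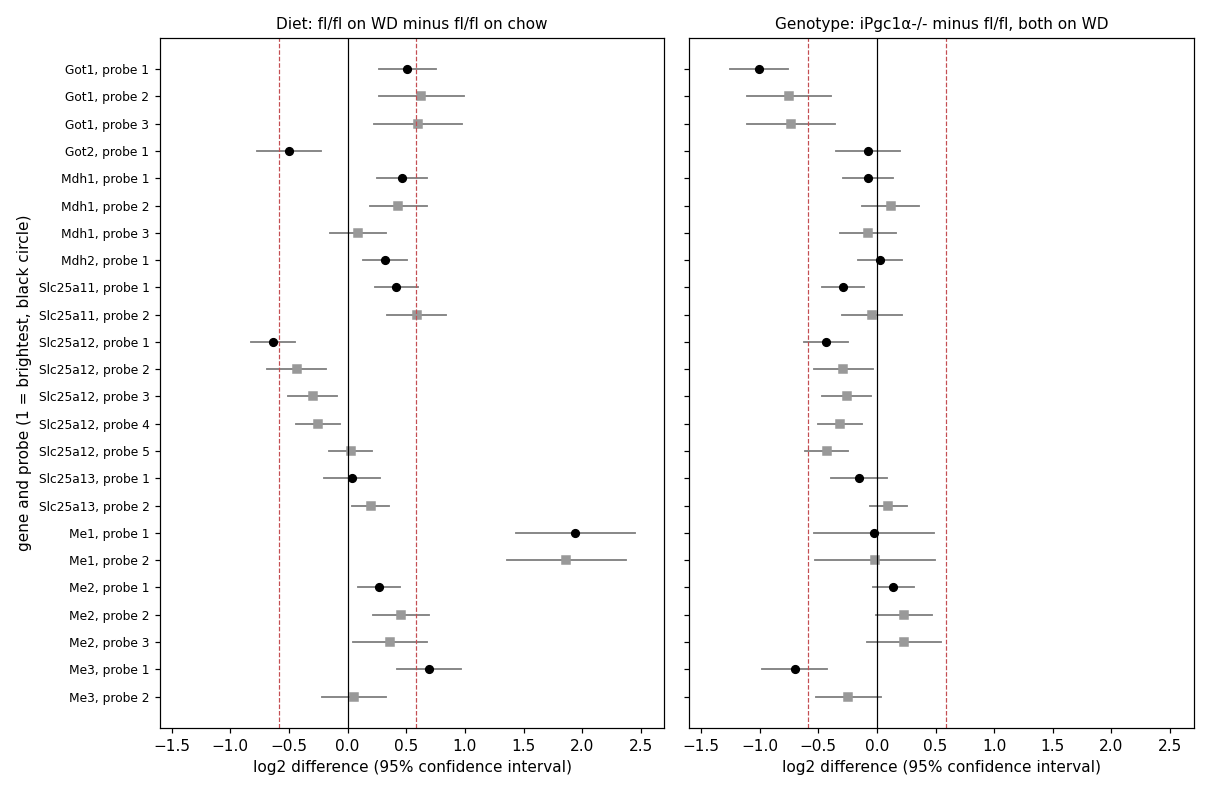
Log2 difference by diet (left) and genotype (right) of the 24 measured probes (y axis, probe 1 of each gene being its brightest, drawn as a black circle, and other probes as grey squares). Lines are 95% confidence intervals and dashed lines mark a fold change of 1.5 in either direction; the 2 probes of *Me1* lie at 1.94 and 1.87 by diet and at -0.02 each by genotype.

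Of the malic enzymes, *Me1* had the largest diet difference of the set. At its brightest probe (chr9:86475077-86475136, minus strand) signals ranged from 8.99 to 9.98 on chow (median 9.65), from 10.90 to 12.69 on WD (median 11.29) and from 11.06 to 11.80 in iPgc1α-/- mice (median 11.34). Every array on WD, of either genotype, lay above every array on chow. The mean rose from 9.50 ± 0.41 to 11.45 ± 0.65 (SD, n = 6 each), a difference of 1.94 (SE 0.24, interval 1.43 to 2.45), or 3.84-fold, and the second probe gave 1.87 (SE 0.24). Leaving out the highest array, floxed WD replicate 6, gave 1.70. Between genotypes the difference was -0.02 at both probes, with intervals from -0.53 to 0.48 and from -0.53 to 0.49, which still hold changes of up to 0.5 in either direction.

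*Me3*, the mitochondrial NADP-dependent enzyme, was higher on WD and back at the chow level in iPgc1α-/- mice. At its brightest probe (chr7:97000413-97000472, plus strand) the 6 arrays on chow ranged from 7.37 to 8.01 (median 7.71), those of floxed mice on WD from 8.04 to 8.54 (median 8.43) and those of iPgc1α-/- mice from 7.33 to 8.21 (median 7.70). The floxed groups did not overlap, and 1 iPgc1α-/- array, replicate 1 at 8.21, reached into the range of floxed mice on WD. The diet difference was 0.70 (SE 0.13, interval 0.42 to 0.97), 1.62-fold, and the genotype difference -0.70 (SE 0.13, interval -0.98 to -0.43), 1.63-fold. The iPgc1α-/- mice on WD differed from floxed mice on chow by -0.01 (SE 0.13).

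The genotype call of *Me3* was lost in 9 of 18 fits that leave out 1 array (floxed WD replicates 1, 2, 3, 4 or 6 and iPgc1α-/- replicates 2, 3, 4 or 5), where its value stayed between -0.71 and -0.63. Of the 18, the 6 without a chow array leave the genotype difference itself unchanged, and all 9 losses fell among the others. The diet call of *Me3* held in all 18. The second probe of *Me3*, which spans a splice junction and was well above background on 13 of 18 arrays, differed by 0.05 (interval -0.22 to 0.33) with diet and by -0.24 (interval -0.52 to 0.03) with genotype. With the mean of both probes the differences were 0.37 and -0.47, and neither was called. *Me2*, the mitochondrial NAD-dependent enzyme, was higher on WD at its 3 measured probes by 0.27, 0.46 and 0.36, all under the fold threshold, and higher again in iPgc1α-/- mice by 0.14, 0.23 and 0.23. Its genotype intervals all include 0, the brightest running from -0.04 to 0.32.

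Each of the 3 slides carried 2 arrays per group, so both differences were also taken within a slide. *Got1* differed by genotype by -0.89, -1.09 and -1.04 on the 3 slides, and *Me3* by -0.89, -0.68 and -0.53. By diet, *Me1* differed by 1.57, 2.12 and 2.14, *Me3* by 0.53, 0.94 and 0.62, and *Slc25a12* by -0.79, -0.61 and -0.50. At the brightest probe, 9 of the 10 genes kept 1 direction over the slides by diet, all but *Slc25a13*, and 6 of 10 by genotype. Those 6 include *Mdh1*, at -0.05, -0.004 and -0.18. The slides divide the same arrays by which the set was chosen, so these counts add no support. The share over all gene names was not taken. The genotype differences of *Me1* were 0.13, 0.30 and -0.50.

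**Figure D4:**
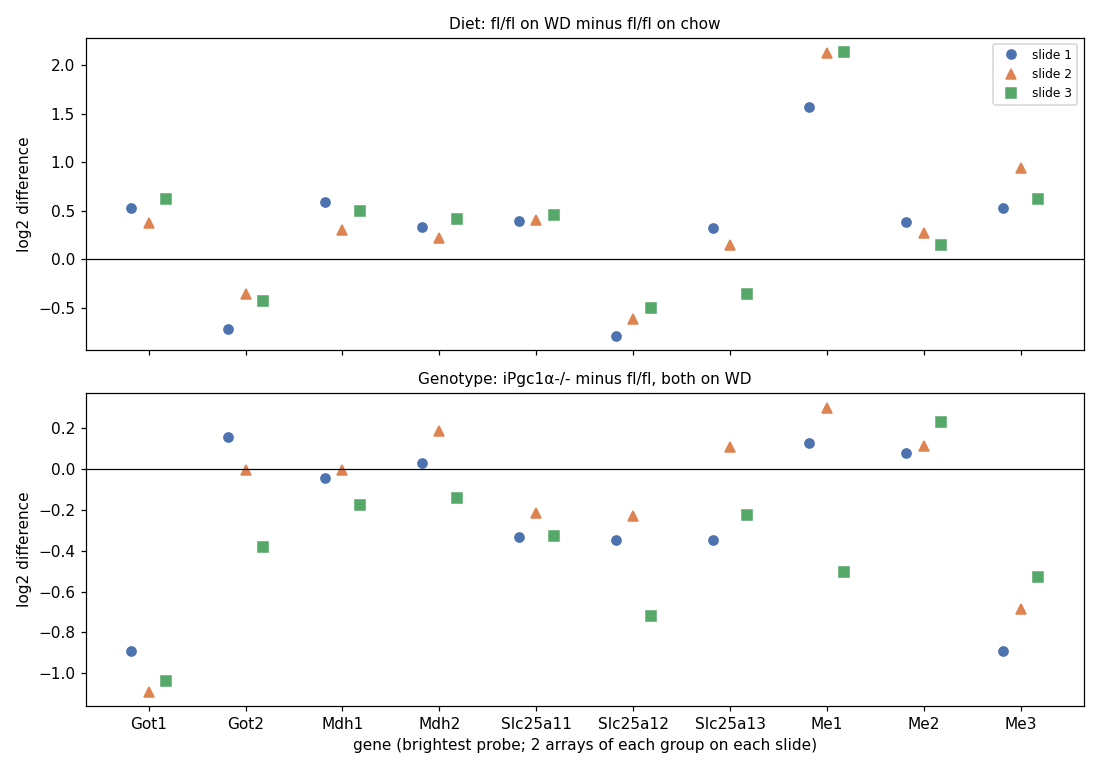
Log2 difference of the brightest probe of each gene (x axis) within each of the 3 slides, by diet (upper y axis) and genotype (lower y axis), each point comparing 2 arrays with 2. *Got1*, *Me3*, *Slc25a11* and *Mdh1* lie above 0 by diet and below 0 by genotype on each slide, *Mdh1* by only -0.004 on slide 2 by genotype.

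Cell type markers moved with diet, 3 of 50 measured being called higher and 16 lower on WD. Of the 6 ileal enterocyte markers, *Alpi* (0.90) and *Apoa4* (0.98) were called higher and *Slc10a2* (-1.07) lower, while the 5 epithelial markers differed by -0.06 to 0.20. Of the T cell markers, 4 of 4 measured were called lower on WD, and the mean level of the list ranged from 9.94 to 11.45 on chow, from 8.96 to 9.64 in floxed mice on WD and from 9.22 to 9.96 in iPgc1α-/- mice. Of the B and plasma cell markers 4 of 5 were called lower, at 7.04 to 8.58, 5.21 to 7.03 and 5.81 to 6.78, respectively. Of the goblet cell markers 4 of 5 were called lower, at 16.20 to 16.63, 15.04 to 16.31 and 15.54 to 16.16. The part of the marker shifts in the diet differences of the shuttle genes was not tested. By genotype, limma called 0 of 50 measured markers of 13 cell type lists, where 0.162% of all gene names were called. Of the 50, 5 had a probe with an unadjusted p under 0.05. Among these, *Ang4* differed by -0.89, *Jchain* by 0.95 and *Cd68* by 0.34, the last without overlap of the groups. The part of such shifts in the genotype differences was not tested.

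Genes around the shuttle were taken as 6 lists of 52 genes, of which 47 were measured. By diet, 6 were called higher and 5 lower, 23.4% of those measured beside 9.1% of all gene names. The lists were chosen with earlier results of these data known, so these shares are a description. The median diet difference was 0.09 over the lists. It is not set against that of the shuttle and malic enzyme genes, since their choice used these differences. Adjusted p-values in the sentences on these genes come from limma over all 32726 probes, with n = 6 per group.

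Genes that release or use malate, oxaloacetate and pyruvate held the largest diet difference of the lists. *Pck1*, cytosolic phosphoenolpyruvate carboxykinase, which draws on the oxaloacetate that cytosolic malate can supply, rose by 2.22 (SE 0.32, adjusted p = 5.1e-05), from 10.56 to 13.54 on chow to 14.15 to 15.00 on WD. *Pck2*, the mitochondrial form, fell by 0.77 on the log2 scale (-0.77, SE 0.16, adjusted p = 0.0016). By genotype *Pck1* differed by -0.02 and *Pck2* by -0.01.

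Of 10 genes of glutamate and alanine metabolism, 3 were called higher and 2 lower on WD. Among those called higher, *Glud1*, glutamate dehydrogenase, was higher by 0.84 (SE 0.13, adjusted p = 0.00013) and *Gpt*, the cytosolic alanine aminotransferase, by 0.67 (SE 0.11, adjusted p = 0.00013). *Psat1*, the aminotransferase of serine synthesis, differed by -1.29 (SE 0.20, adjusted p = 0.00011) and *Slc1a5*, a neutral amino acid carrier, by -0.63 (SE 0.13, adjusted p = 0.0011). The fold of *Slc1a5* dropped under the threshold without floxed WD replicate 2 (-0.55) or 3 (-0.56), and that of *Gpt* without floxed chow replicate 4 (0.57). Thus *Glud1* and *Gpt*, which convert glutamate, rose while *Psat1*, which also uses it, fell.

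Among the 9 measured genes around aspartate, *Asns*, asparagine synthetase, was the 1 called, at -1.61 (SE 0.23, adjusted p = 4.2e-05), from 11.01 to 13.06 on chow to 10.08 to 10.89 on WD. Of 6 measured mitochondrial carriers, *Slc25a10*, the dicarboxylate carrier that also moves malate, was called at 0.64 (SE 0.18, adjusted p = 0.012), and that call was lost without floxed chow replicate 1 (0.58) and without floxed WD replicate 2 (0.58) or 3 (0.56). In the glycerol phosphate shuttle, the other route for cytosolic NADH, and among lactate dehydrogenases limma called 0 of 6 by diet, with 1 gene at an unadjusted p under 0.05. That gene was *Gpd1*, at 0.38 (SE 0.09, adjusted p = 0.0035), under the fold threshold.

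Of 8 sources of NADPH, *Idh1*, the cytosolic isocitrate dehydrogenase, rose on WD by 1.18 (SE 0.10, adjusted p = 1.4e-07), beside the 1.94 of *Me1*. *Mthfd2*, a mitochondrial folate enzyme, differed by -0.98 (SE 0.14, adjusted p = 3.25e-05). By genotype, 14 of the 47 genes of the 6 lists had an unadjusted p under 0.05 in limma, and the share over all gene names was not taken. Of the 47, 1 was called, where 0.162% of all gene names were. This was *Nnt*, the mitochondrial transhydrogenase, which makes NADPH from NADH. Its brightest probe ranged from 9.55 to 10.02 on chow, from 9.68 to 10.26 in floxed mice on WD and from 11.32 to 11.60 in iPgc1α-/- mice. It was thus higher in all 6 iPgc1α-/- arrays than in any of the 12 others, by 1.48 on WD (SE 0.10, adjusted p = 1.5e-07). A second probe differed by 0.61 (SE 0.10, adjusted p = 0.0053) and the dimmest by 0.06 (SE 0.09, adjusted p = 0.86). *Nnt* is known to carry a deletion in C57BL6/J mice that other C57BL6 substrains lack, and it differed between the genotypes on WD, as *Got1* and *Me3* did but in the opposite direction, while by diet it differed by 0.12 (SE 0.10, adjusted p = 0.44). The part of strain background in the genotype differences was not tested.

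**Figure D5:**
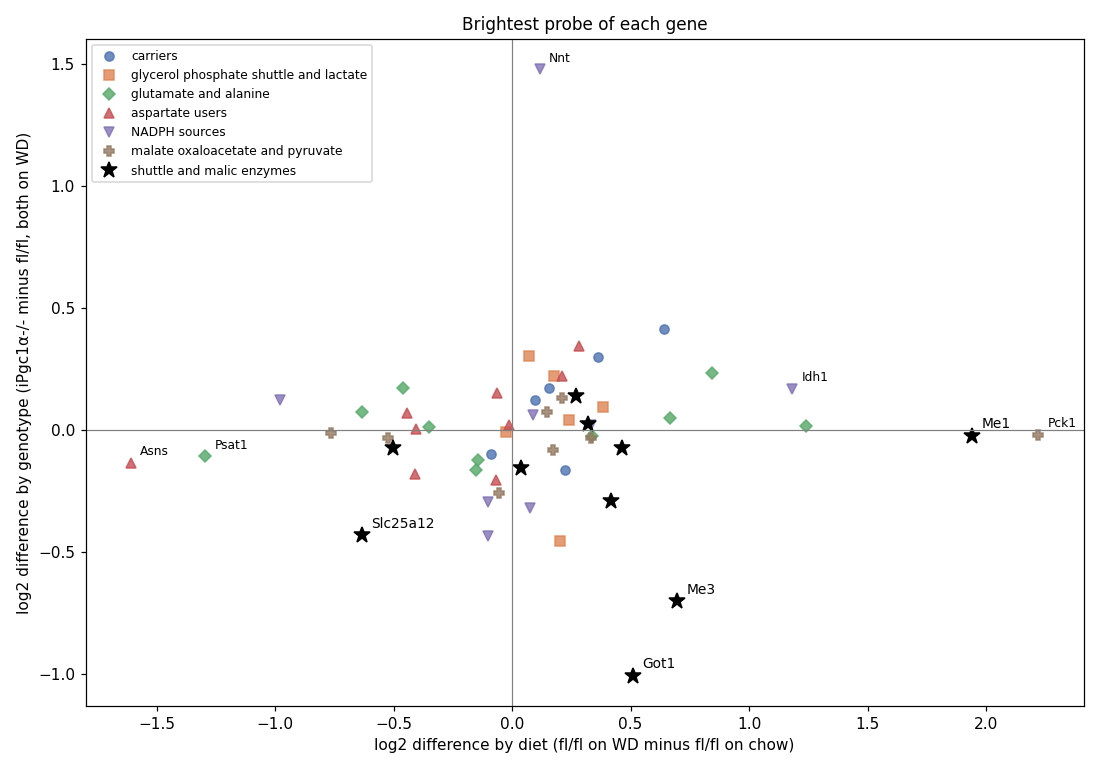
Log2 difference by diet (x axis) against log2 difference by genotype (y axis) for the brightest probe of the 47 measured neighbouring genes, by list, and the 10 shuttle and malic enzyme genes (black stars). Both axes share the floxed arrays on WD, so no relation between them is read; *Nnt* stands at 1.48 and *Got1* at -1.01 by genotype, and *Pck1* and *Me1* at 2.22 and 1.94 by diet.

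The genes whose pattern was most like that of *Got1* over the 18 arrays, by Pearson r at the brightest probe, were *Cox11* (0.915), *Kcnk4* (0.892), *Rn18s* (0.868), *Fuom* (0.862) and the transcript AK206655 (0.849). With each group's mean removed, r was 0.740 for *Cox11*, 0.505 for *Kcnk4*, 0.707 for *Fuom* and 0.126 for AK206655, so that the likeness of the last lay almost wholly between the groups. *Rn18s*, a ribosomal RNA and the brightest probe of every array, had no spread within the groups, so that its r with the group means removed could not be computed, and its r of 0.868 rests on differences of 0.00 in both comparisons. AK206655 differed by 0.60 with diet and by -1.43 with genotype. Among the 5 genes most like *Me3* were *Ubl4* (0.839), *Fblim1* (0.836), *Smcp* (0.815) and *Fscn3* (0.808), with 0.673, 0.700, 0.642 and 0.683 after the group means were removed. These values describe arrays that share group, slide and normalization, and no gene was named on both lists.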

How the data were processed

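RNA of ileum cells was labelled with Cy3 and hybridised to Agilent one-colour arrays. The authors deposited scanner intensity values from Feature Extraction 10.10.1.1, not normalized between arrays, and a table of log2 values that they had filtered, corrected for washing bath and labelling serial and normalized with qsmooth. The labels do not name those batches, so that correction was not repeated. Here control and outlier spots (46 to 153 an array) were left out, spots of a probe were averaged, log2 median signals underwent smooth quantile normalization, rewritten after qsmooth with a window of 0.05 (R 4.3.3). One limma 3.58.1 model covered the 3 groups, and p-values of all 32726 probes were adjusted by Benjamini and Hochberg's method. Alternatives covered other signals, normalizations, filters, blocks and probe summaries and each array left out. Between 56.3% and 62.3% of spots were well above background and 0 were saturated, and the number of arrays limits the precision. P-values cover the spread between mice. The procedure was tested on simulated data. Genes named are the set, called genes of the lists or else the gene with the largest change, and the 5 most alike, of which single results are not reported here for some. The set and the lists were chosen with earlier results of these data known. Coordinates of probes are those of the array files (mm9). Plots were drawn with matplotlib 3.10.9.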

Additional observations from a re-analysis of the deposited data

Results flagged for a closer look

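In 5 of 72 groups of 6 arrays (24 probes in 3 groups), the highest or lowest array stood apart from the others by a share of the group's range above Dixon's 95% critical value, where chance gives about 1 in 20. At *Me1* probe 1, floxed WD replicate 6 read 12.69 and the others 10.90 to 11.52 (share 0.654). At *Me3* probe 1, floxed WD replicate 5 read 8.04 and the others 8.36 to 8.54 (share 0.633). At *Slc25a12* probe 4, floxed chow replicate 3 read 6.18 and the others 5.72 to 5.88 (share 0.656), and iPgc1α-/- replicate 4 read 5.06 and the others 5.26 to 5.37 (share 0.647). At *Slc25a13* probe 2, floxed chow replicate 2 read 5.05 and the others 4.85 to 4.93 (share 0.638). The cause of each was not tested.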

How the results depend on the processing

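With the mean of the probes of a gene, 1 shuttle gene was called by diet (*Me1*) and 1 by genotype (*Got1*), since the called probes were averaged with probes that moved less. With no fold-change threshold, 9 shuttle and 20 neighbouring genes passed by diet. Over all gene names, the background-subtracted signal called 3006 by diet and the adjusted p alone 5876, against 1960. With 1 array left out, between 3 and 5 shuttle genes were called by diet and between 1 and 2 by genotype. Of single values of the shuttle genes, 218 under the other settings moved by less than 1 SD and 2 by more, and none of those called changed direction. The exceptions were *Me3* and *Slc25a12* by diet with averaged probes, at 0.37 and -0.32. The diet call of *Slc25a12* was also lost with the background-subtracted signal (-0.58) and with normexp and quantile normalization (-0.52), while the background-subtracted signal added *Slc25a12* to the genotype calls. That added call came from a probe other than its brightest. The brightest *Got1* probe passed the fold threshold by diet under both scalings to the 75th percentile (0.63 and 0.66). *Slc1a5* lost its diet call (-0.57) under both as well. With the replicate block, 5 shuttle and 11 neighbouring genes were called by diet and 2 and 1 by genotype, as without it. By the labels, arrays of the same number share only that number, though some also lay on the same slide, as replicate 4 of both floxed groups. Deviations of arrays of the same number correlated from -0.131 to 0.284 (chow and WD) and from -0.188 to 0.332 (genotypes), and 4 of 6 and 3 of 6 arrays correlated best with their own number. The dim probes of *Me3* and *Slc25a13* are near background, and probes 3 to 5 of *Slc25a12* are dim as well, which limits their differences.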
